A study of Mus musculus with 6 samples.

Results

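The RNA described here came from intergenic intervals at a middle distance from protein-coding genes in the left atrium of the mouse heart. A transcribed interval of the authors' deposited table (a feature, with an MSTRG identifier) was included when it overlapped no gene body of the GENCODE M21 annotation (mm10) on either strand and when the start of the nearest protein-coding gene lay more than 10 kb and at most 100 kb away. This rule uses position and no measured level. It gave 9547 of the 34518 listed features, or 27.7%. The other features were 16831 that overlapped a gene, 4729 intergenic features within 10 kb of a coding gene start and 3411 beyond 100 kb. The members had a median width of 236 bases (25th to 75th percentile 143 to 567.5 bases, widest 67302 bases) and a median distance of 28.5 kb. They had 3119 nearest coding genes, of which 1269 had 1 member and Osr1 had the most, 40.

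The study compared adult CD1 mice, an outbred stock, with the genotype FOG2 overexpression (FOG2_OE, n = 3 libraries) with wild-type mice (WT, n = 3 libraries). Both groups were reared for 1 week without doxycycline. The labels' protocol calls the animals DTG and NTG, and neither the meaning of these names nor the promoter that drives FOG2 was given in the sources used here. The labels do not say whether libraries of a group came from separate animals or litters, so the p-values measure only the spread between these libraries, which may be technical. Ribosomal and polyadenylated RNA were removed and the rest was sequenced with a kit that does not mark strand, so the strands below are those of the deposited table and were not taken as read from the libraries. Effective library sizes ran from 71180401 to 84907173 counts. The feature of Zfpm2, the gene of FOG2, stood at 416 CPM in FOG2_OE and 0.484 CPM in WT (MSTRG.29831), as the labels have it. Marker mRNA is not used here, so the tissue was not checked against it.

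FOG2 is a zinc finger protein that binds GATA transcription factors, GATA4 foremost in the heart, and can raise or lower transcription of their targets. TBX5, a T-box factor named in the series' design beside FOG2, acts with GATA4 and is needed for atrial rhythm. RNA without a poly(A) tail from outside genes includes RNA of active enhancers, unspliced long noncoding RNA and transcripts that run on past a gene's end, and a distal interval can hold any of these. The nearest gene is used below as an address. It was not shown to be a target of the interval.

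To show the DNA at places where the changes below lie, the windows around the start of 6 long noncoding RNA records of RefSeq (GRCm38.p6) that share bases with members are printed, each from 250 bases before to 50 bases after the start, 300 bases in all. They belong to records with at least 3 members called lower (Gm29921, Gm35356, Gm32542) or at least 1 called higher (Gm31213, Gm33496, Gm41910), and each window lies within 500 bases of a member. Gm29921 (chr3:82216483-82216782, minus strand) lies near Gucy1a1, Gm35356 (chr1:144080389-144080688, plus) near Rgs2, and Gm32542 (chr9:95580410-95580709, plus) near Paqr9. Gm31213 (chr7:78954429-78954728, minus) lies near Isg20, Gm33496 (chr6:126599175-126599474, plus) near Kcna1, and Gm41910 (chr1:87071169-87071468, plus) near Alppl2. Capitals mark the words AGATAA and TGATAA, which GATA factors bind, and AGGTGT, which T-box factors bind, on either strand. The lines read 5′ to 3′ on the record's strand.
Gm29921: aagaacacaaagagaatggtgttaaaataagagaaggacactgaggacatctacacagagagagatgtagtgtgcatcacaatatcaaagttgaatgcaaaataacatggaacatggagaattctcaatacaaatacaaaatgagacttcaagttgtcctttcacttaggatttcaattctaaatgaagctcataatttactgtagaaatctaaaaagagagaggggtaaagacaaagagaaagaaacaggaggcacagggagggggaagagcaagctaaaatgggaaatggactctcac
Gm35356: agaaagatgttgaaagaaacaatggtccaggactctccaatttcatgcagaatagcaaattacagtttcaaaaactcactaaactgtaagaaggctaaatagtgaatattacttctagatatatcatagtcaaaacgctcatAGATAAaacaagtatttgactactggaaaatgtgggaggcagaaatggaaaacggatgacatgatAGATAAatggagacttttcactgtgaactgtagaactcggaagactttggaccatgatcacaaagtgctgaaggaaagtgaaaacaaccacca
Gm32542: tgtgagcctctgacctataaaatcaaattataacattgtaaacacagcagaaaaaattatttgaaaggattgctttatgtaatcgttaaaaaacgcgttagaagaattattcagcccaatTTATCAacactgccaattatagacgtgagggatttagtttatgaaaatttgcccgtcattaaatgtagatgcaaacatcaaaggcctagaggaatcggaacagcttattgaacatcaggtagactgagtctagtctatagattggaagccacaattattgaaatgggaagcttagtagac
Gm31213: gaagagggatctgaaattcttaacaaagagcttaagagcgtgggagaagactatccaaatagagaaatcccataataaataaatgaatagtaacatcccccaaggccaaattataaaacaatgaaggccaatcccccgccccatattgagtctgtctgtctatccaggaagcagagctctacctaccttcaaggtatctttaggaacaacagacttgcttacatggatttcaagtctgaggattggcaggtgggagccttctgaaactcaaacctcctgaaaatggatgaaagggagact
Gm33496: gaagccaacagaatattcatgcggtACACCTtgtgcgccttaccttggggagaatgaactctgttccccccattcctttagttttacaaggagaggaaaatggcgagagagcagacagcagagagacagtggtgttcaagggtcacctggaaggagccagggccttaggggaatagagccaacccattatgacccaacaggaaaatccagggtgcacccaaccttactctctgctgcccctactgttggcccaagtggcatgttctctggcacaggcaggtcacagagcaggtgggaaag
Gm41910: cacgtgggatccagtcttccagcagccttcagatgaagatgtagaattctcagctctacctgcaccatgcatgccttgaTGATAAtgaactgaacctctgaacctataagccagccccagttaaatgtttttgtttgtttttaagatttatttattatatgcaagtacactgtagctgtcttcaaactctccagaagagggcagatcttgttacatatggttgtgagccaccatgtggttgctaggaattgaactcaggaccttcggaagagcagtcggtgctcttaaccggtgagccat

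Gm35356, over the members near Rgs2 and Rgs13 that were lower in FOG2_OE, held AGATAA at 2 places. TGATAA stood in the windows of Gm32542 (on the other strand) and Gm41910, AGGTGT in that of Gm33496 (on the other strand), and none of these words in those of Gm29921 and Gm31213. The 8 members over Gm33496 were all listed on the strand opposite to the record, and of the 31 over Gm29921 1 was listed on the record's strand. The window of Gm31213 lay 421 bases from its 1 member. None of the 6 windows is shown to hold the start of a member. Among all 32851 start windows of RefSeq, 11.2% held AGATAA, 9.05% TGATAA and 13.7% AGGTGT. Among the 382 windows of the 283 long noncoding records that share bases with members, the shares were 12.8%, 10.2% and 13.9%. In the 36 windows of 25 records with a member called lower the shares were 22.2% (8 windows), 2.78% (1) and 13.9% (5). In the 8 windows of 6 records with a member called higher they were 0%, 12.5% (1 window) and 37.5% (3). Windows of the same record were counted separately, and the shares were not tested. The 382 windows over members also held less G and C (median 48.0% against 52.7% for all windows), and a match is a description of the letters and not a bound site.

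Intergenic RNA at this distance was more often lower than higher under FOG2 overexpression, as it was in the table as a whole. The authors' deposited table calls 452 members lower and 103 higher in FOG2_OE, where a call is an adjusted p under 0.05 (likelihood ratio test, two-sided, Benjamini-Hochberg over all features). That is 5.81% of the members, and 5.81% of all features were called (4.65% lower and 1.16% higher), so that the members' share of calls does not stand apart from the background. The members' calls were 4.73% lower and 1.08% higher. Lower calls made up 81.4% of the members' calls. With the median ratio of all features set to 1, which shifts every log2 value by 0.21, 327 members were lower and 143 higher, or 69.6% lower. On that scale 3.47% of all features were lower and 1.62% higher, 5.1% in all. The authors' deposited table gives a median of -0.25 on the log2 scale for the members and -0.21 for all features, and 62.8% of members and 60.6% of all features lay under 0. Fewer cells of a type and less RNA per cell cannot be told apart in whole atria.

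Changes of called members were large, and most rested on scarce RNA: 360 of the 555 had fewer than 20 fitted counts per library. Members called higher had a median log2 fold change, by the authors' deposited table, of 3.20 (range 0.63 to 6.54), and those called lower one of -2.89 (range -7.86 to -0.85). These values include members at 0 in 1 group, whose log2 value is no measured ratio, and -7.86 belongs to one of them (MSTRG.51007). Scarce members can pass the test only with large ratios, so these sizes follow in part from the calling. The sample columns of the table are fitted values that differ within a group only by library size, so each group has a single level, given here as CPM of the effective library, the same in its 3 libraries. No spread between replicates can be read from them. The standard error (SE) printed beside a fold change was solved from the deposited likelihood ratio. Its median was 0.77 over members and 0.65 over those called, in both cases without the members at 0 in 1 group, which have no SE. The median member had 6.95 fitted counts per library, and 77.4% had fewer than 20. In FOG2_OE 98 members stood at 0, of which 81 were called, and in WT 42, of which 27 were called. Called shares went up with abundance, from 267 of 5913 members under 10 fitted counts to 11 of 37 at 1000 or more.

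**Figure D1:**
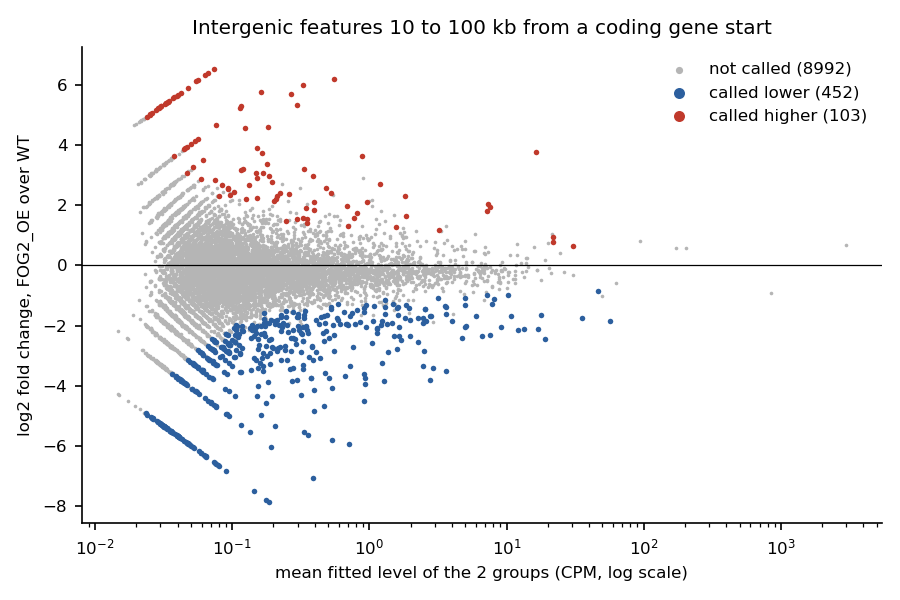
Log2 fold change of FOG2_OE over WT from the authors' deposited table (vertical axis) against the mean fitted level of the 2 groups in CPM (horizontal axis, log scale), 1 point per member. The 452 members called lower are blue and the 103 called higher red. The straight diagonal streaks at the left are members with 0 or a few counts in 1 group, and the 2 most abundant members, at the far right, were not called.

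The calls depend on how the likelihood ratio is read. Against an F distribution that allows for error in the estimated dispersions (10 residual degrees of freedom), 15 members were higher and 93 lower. Of all features 0.203% were then higher and 1.07% lower, 1.27% in all. At a threshold of 0.01 on the deposited adjusted p, 52 members were higher and 253 lower, against 0.608% and 2.69% of all features, 3.3% together. Among features of at least 20 fitted counts per library, 37 of 2159 members were higher and 174 lower, against 1.98% and 7.86% of all 8176 such features, 9.85% together. With 4 residual degrees of freedom in the F distribution, those of 6 libraries in 2 groups, no member was called, and the smallest adjusted p of a member was 0.583. An unadjusted p under 0.05 was then reached by 139 higher and 544 lower of the 9547 members. Among all 34518 features it was reached by 529 higher and 1927 lower ones.

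The share of members called lower was larger farther from coding genes. It was 3.48% of 3048 members at 10 to 20 kb, 4.74% of 4160 at 20 to 50 kb and 6.37% of 2339 at 50 to 100 kb. Intergenic features outside the limits continued the order, with 2.88% lower within 10 kb and 11.6% beyond 100 kb. The shares called higher were 0.656% within 10 kb, 0.787%, 1.30% and 1.07% over the same 3 ranges, and 1.32% beyond 100 kb, an order broken at 1 step. The median log2 fold change, by the authors' deposited table, moved less, from -0.25 at 10 to 20 kb to -0.28 at 50 to 100 kb, and was -0.35 beyond 100 kb. Neighbouring members often changed together, so that members of a range are not independent, and no test over them was made. The steps of 10 kb were uneven: 7.43% of members were lower at 70 to 80 kb, 6.84% at 80 to 90 kb and 7.14% at 90 to 100 kb.

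**Figure D2:**
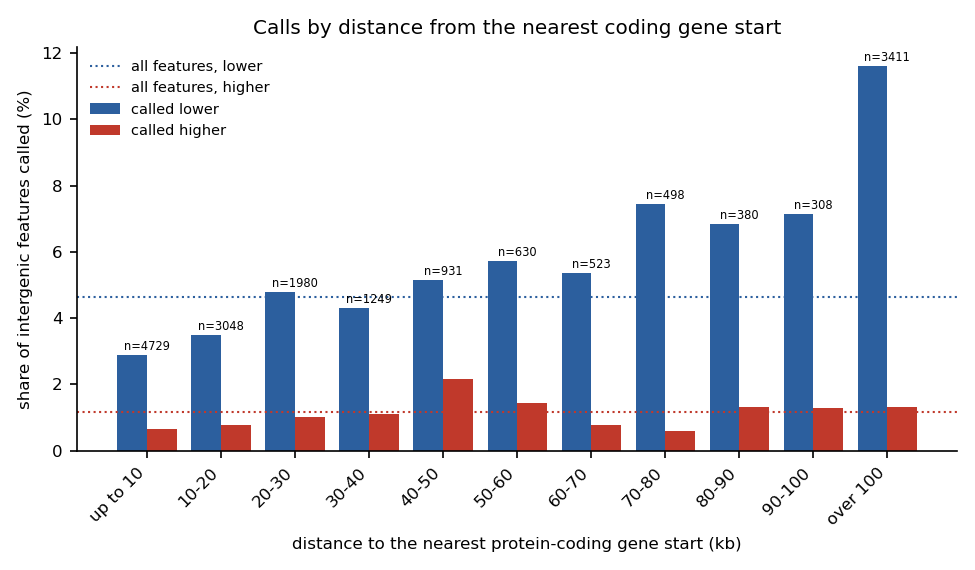
Share of intergenic features called lower (blue) and higher (red) in FOG2_OE, in percent, by distance to the nearest protein-coding gene start in kb, with the number of features above each pair of bars. Bars from 10 to 100 kb are the members, the outer bars are other intergenic features, and dotted lines give the shares over all features, 4.65% lower and 1.16% higher.

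The share of calls also varied with the position relative to the nearest gene. Members upstream of the nearest gene start and listed on the opposite strand had 154 of 1897 called lower (8.12%) and 18 higher. Those upstream on the same strand had 110 of 2662 lower (4.13%) and 36 higher. Those downstream on the same strand had 123 of 3516 lower (3.50%) and 32 higher, and those downstream on the opposite strand 65 of 1472 (4.42%) and 17. Of all features 4.65% were lower and 1.16% higher. Whole groups can fall into 1 of these classes: the 6 lower members upstream of Zfpm2 were all listed on the opposite strand, as was MSTRG.4980 of the group near Tnfsf18. Neighbours in groups are not independent, and the differences in shares were not tested. Calls were also uneven between chromosomes. Chromosome 1 had 78 of 670 members lower (11.6%), chromosome 19 had 31 of 259 and chromosome 9 had 53 of 575 (9.22%), while on the X chromosome 12 of 455 were higher and 8 lower. On chromosomes 2, 10, 18 and 19 no member was called higher. With the median ratio of all features set to 1, 5 were higher on chromosome 2, 2 on chromosome 19 and 0 on chromosomes 10 and 18. Of the 86 calls on chromosome 1, 50 belonged to the 2 groups near Tnfsf18 and Rgs13 described below. Of the 53 lower calls on chromosome 9, 21 belonged to the group near Paqr9, Pcolce2 and Trpc1.

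Many members lay shortly past the end of a coding gene, a place where RNA may or may not be continuous with the gene, which was not tested. Of the members, 4912 began within 10 kb past the end of a coding gene on the strand listed for that gene, and 2.48% of these were called (101 lower and 21 higher), against 9.34% of the other 4635 (351 lower and 82 higher). The difference in shares was not tested. The median level in WT was 0.108 CPM past gene ends and 0.0898 CPM elsewhere. RNA past gene ends summed to 2064 CPM under FOG2_OE and 2468 CPM in WT. Within 1 kb past an end, 29 of 1374 members were lower and 7 higher.

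A few of the called members past gene ends are described in this and the next paragraph, chosen after their values were seen. Past the end of Kcnk3, a background potassium channel of atrial muscle, MSTRG.63372 (0.493 CPM in FOG2_OE and 1.95 CPM in WT) and MSTRG.63363 (0.467 and 1.67 CPM) were both called lower. Past Kcnh2, the channel of the rapid delayed rectifier current, MSTRG.63147, which also overlaps the long noncoding RNA record Gm15589, was lower at 0.0421 against 0.232 CPM. Past Atp2a2, the calcium pump of the sarcoplasmic reticulum, MSTRG.66574 was lower at 1.99 against 5.22 CPM.

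Elsewhere, RNA was lower past Dsc2, a desmosomal cadherin (MSTRG.39595, 0.553 and 2.16 CPM), and past Ppp1r3a, a glycogen-targeting subunit of protein phosphatase 1 (MSTRG.68353, 5.17 and 16.4 CPM). It was lower at 5 members past Scd4, a stearoyl-CoA desaturase of the heart, the most abundant of which, MSTRG.43740, stood at 0.493 and 5.29 CPM. In the other direction, RNA was higher past Pdk4, a kinase that limits glucose oxidation (MSTRG.68047, 0.686 and 0.0856 CPM, and MSTRG.68058, 0.251 and 0.0516 CPM). It was also higher past Dusp4, a phosphatase of MAP kinases (MSTRG.79917, 11.98 and 3.12 CPM), and past Gpc4, a glypican (MSTRG.89286, 28.5 and 14.9 CPM). The mRNA of these genes was not measured here.

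Of the members, 1876 (19.7%) overlapped a gene record of RefSeq that GENCODE M21 does not have at that place. Those over long noncoding RNA records were called in 9.37% of cases (88 lower and 13 higher of 1078), those over protein-coding records in 3.32% (11 and 11 of 662), and the 7671 with no record in 5.58% (352 lower and 76 higher). Of all features 5.81% were called. Many lower calls over long noncoding records came from a few records, given next, so these members are not independent. The differences between these shares were not tested. Gm29921 near Gucy1a1 held 31 members, 16 of them lower, with a summed level of 2.18 CPM under FOG2_OE and 9.08 CPM in WT. Of these 31, 1 was listed on the record's own strand. Gm35356 held 15, of which 12 were lower, at 0.906 and 11.9 CPM, and all 15 were on its strand. All 6 members of Gm33474, beyond the end of Cdc7, were lower (0.0770 and 2.41 CPM). Gm35438 upstream of Vldlr had 3 of 6 lower (3.81 and 18.6 CPM). On the higher side, Gm39167 near Mtus1 had 5 of 8 members higher (1.04 and 0.0850 CPM), and the coding record of Sytl5 on the X chromosome, a synaptotagmin-like protein of vesicle traffic, had 5 of 31 (23.0 and 10.2 CPM). Over all pairs of a member and a long noncoding record of known strand, 564 of 794 (71.0%) were on the same strand.

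The 12 members with the smallest adjusted p among those that rose, taken with at most 2 per gene, are given here. The first was MSTRG.80550, an interval of 24115 bases in the region beyond Npy1r, a neuropeptide Y receptor, which stood at 30.8 CPM in FOG2_OE and 2.25 CPM in WT, a log2 fold change of 3.77 (SE 0.36, adjusted p = 4.0e-18) by the authors' deposited table. Beside it MSTRG.80529 stood at 1.63 and 0.129 CPM. Next came a pair upstream of Ttc7b, a scaffold of the phosphatidylinositol 4-kinase complex. MSTRG.20656 (chr12:100533205-100534487) stood at 0.650 CPM in FOG2_OE and 0.00867 CPM in WT, where it had 2.01 fitted counts over the group. Its ratio was 75.01 (95% exact interval 20.5 to 620, counting error only), and the authors' deposited table gives an adjusted p of 5.3e-15. MSTRG.20654, the next interval of the pair, had 0.320 and 0.00430 CPM.

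Hcn4, the pacemaker channel, had 3 called members past its end, all higher and all listed on its strand, among 5 members in the interval they span. MSTRG.85258 (1.29 kb past the end) stood at 0.301 and 0.0344 CPM, MSTRG.85262 (2.58 kb) at 0.527 and 0.00868 CPM, and MSTRG.85264 (4.12 kb) at 0.147 and 0.00431 CPM, where the last level is that of 1 fitted count. MSTRG.85262 and MSTRG.85264 each share bases with an uncalled member listed on the other strand (MSTRG.85263, 0.0544 and 0.0520 CPM, and MSTRG.85265, 0.0460 and 0.0722 CPM). Against the F distribution with 10 residual degrees of freedom MSTRG.85264 lost its call (adjusted p = 0.060). MSTRG.76142, an interval of 15155 bases beyond Isg20, an interferon-induced exonuclease, stood at 1.09 and 0.0131 CPM, a ratio of 83.1 (95% exact interval 28.3 to 401, counting error only). It was among the largest changes that rose, and its log2 fold change was 6.21 (SE 1.03, adjusted p = 9.5e-10) by the authors' deposited table. MSTRG.79917 past Dusp4 (11.98 and 3.12 CPM) had a log2 fold change of 1.94 (SE 0.34, adjusted p = 2.6e-06) by the authors' deposited table. The rest were MSTRG.89455 beyond 1110012L19Rik (0.580 and 0.0129 CPM), MSTRG.52562 upstream of Pgrmc2, a heme-binding membrane protein (2.08 and 0.319 CPM), MSTRG.5013 upstream of Rabgap1l (0.328 and 0.0303 CPM) and MSTRG.76114 upstream of Akap13, an anchor of protein kinase A (0.286 and 0.0175 CPM).

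Among the members that fell, the smallest adjusted p belonged to MSTRG.12665, 16.5 kb upstream of Adra1b, an alpha-1 adrenergic receptor. It stood at 0.575 CPM in FOG2_OE and 6.64 CPM in WT, a log2 fold change of -3.52 (SE 0.35, adjusted p = 1.2e-17) by the authors' deposited table, and 6 of the 9 features over the gene itself were called lower too. MSTRG.4980 upstream of Tnfsf18, a ligand of the tumor necrosis factor family, stood at 0.0213 and 1.40 CPM, and MSTRG.4966 beyond Tnfsf4, its neighbour of the same family, at 0.0127 and 0.705 CPM. MSTRG.44029, 11.5 kb upstream of Dusp5, a phosphatase of ERK, stood at 0.112 and 1.76 CPM. The authors' deposited table gives it a log2 fold change of -3.96 (SE 0.51, adjusted p = 1.7e-11). Dusp4 and Dusp5, 2 genes of a family, so had changed intervals of opposite direction, higher beside Dusp4 and lower beside Dusp5.

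Other named members that fell lay near genes of varied function. MSTRG.51007 beyond Cbln4, a secreted cerebellin, stood at 0 in FOG2_OE and 0.369 CPM in WT, at least 29.1-fold lower against a floor of 3 counts over the group. MSTRG.22530 near Serpinb1c (0.0127 and 0.657 CPM) overlapped RefSeq records of that gene and of a pseudogene, so that reads of near-identical copies could be shared. MSTRG.65709 beyond Cdc7, a kinase of DNA replication, stood at 0.0170 and 1.05 CPM, and MSTRG.85105 beyond Odf3l1 at 0.0251 and 0.762 CPM. MSTRG.47801 and MSTRG.47805, wide intervals beyond Kcna4, stood at 6.33 and 27.4 CPM and at 4.96 and 21.7 CPM. MSTRG.43020 upstream of Vldlr, a lipoprotein receptor, stood at 2.17 and 11.1 CPM, a log2 fold change of -2.36 (SE 0.30, adjusted p = 3.0e-11) by the authors' deposited table. The 50 members named by rule include the 6 most abundant, which were not called. Against the F distribution with 10 residual degrees of freedom, 15 of the called ones lost their call.

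Called members lay in groups. With neighbours of the same direction joined across gaps of at most 100 kb, the 555 called members formed 64 higher and 197 lower groups, so that 75.5% of groups were lower. Of these groups, 174 were single members, and the 87 groups of 2 or more held 381 members. The 5 with the most members were all lower and held 96 of the 452 lower calls. Without them 356 members were lower and 103 higher. The interval of a group runs from its first to its last called member. Uncalled members outside it are left out, so the shares called and summed levels within intervals follow in part from that choice.

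The group near Tnfsf18 and Tnfsf4 had 30 of 34 members called lower over 94.0 kb (chr1:161418695-161512708), summing to 0.173 CPM under FOG2_OE and 7.18 CPM in WT, 41.5-fold lower. All 34 were listed on the minus strand and all lay under 0, and the 6 features over Tnfsf18 and the 2 over Tnfsf4 were called lower as well. The group near Paqr9, Pcolce2 and Trpc1, genes of a progestin receptor family member, a collagen processing factor and a cation channel, had 21 of 32 lower over chr9:95544215-95699430 (1.91 and 9.59 CPM). The group around Rgs13, Rgs2 and Rgs1, regulators that shorten G protein signalling, had 20 of 24 lower over chr1:144077763-144278803 (1.06 and 13.3 CPM, 12.5-fold lower). Gucy1a1, a subunit of the nitric oxide receptor guanylate cyclase, had 16 of 25 lower over chr3:82156788-82219218 (2.01 and 8.61 CPM, 4.29-fold lower). Ier3, an immediate early gene, had 9 of 9 lower over chr17:35785810-35807237 (0.186 and 2.45 CPM, 13.2-fold lower).

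Other groups, chosen after their values were seen, follow in the order of lower and higher. Counts are of members in the group's interval, which the calls bound. Beyond Adcy1, an adenylyl cyclase, 5 of 5 were lower at a summed 32.4 CPM in FOG2_OE and 123 CPM in WT. Beyond the GENCODE start of Kcna4, a channel of the transient outward current, 5 of 6 were lower at 36.4 and 139 CPM. Most of that level came from MSTRG.47803 (24.8 and 88.9 CPM), which overlaps the RefSeq coding record of Kcna4 itself. Upstream of Myzap, a protein of the cardiac intercalated disc, 5 of the 5 members in the group's interval were lower, with log2 fold changes from -2.87 to -1.76 in the authors' deposited table. The other 2 of the 7 members nearest to Myzap were not called. The largest higher group was that beyond Npy1r, 8 of 8 over chr8:66740411-66772605 (33.8 and 2.46 CPM, 13.8-fold higher). Others were Magi1 and Slc25a26 with 5 of 10 higher (4 nearest to Magi1, 6.38 and 1.38 CPM), Mtus1 with 5 of 7 (0.878 and 0.0554 CPM), Hypm and Sytl5 on the X chromosome with 5 of 22 (15.5 and 6.43 CPM), Rabgap1l with 4 of 7, and Dmp1 and Ibsp, genes of mineralised matrix, with 4 of 4 (0.593 and 0.0131 CPM).

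**Figure D3:**
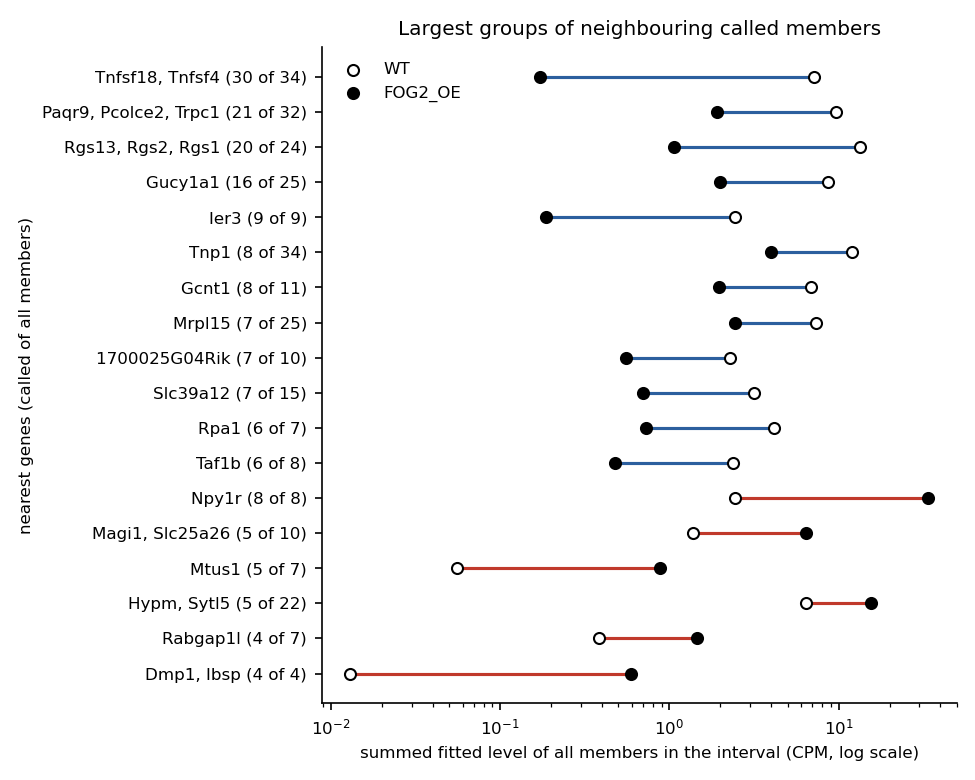
Summed fitted level (CPM, log scale) of all members in the interval of a group, in WT (open circles) and FOG2_OE (filled circles), for the 12 lower groups (blue) and 6 higher groups (red) with the most called members. Labels give the nearest genes and the called members of all members in the interval. The group near Tnfsf18 and Tnfsf4 had the widest gap among those 12, 0.173 against 7.18 CPM.

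Members of a group did not change equally. Of 23 members nearest to Tnfsf18, 21 were called, with log2 fold changes from -7.79 to -2.92 in the authors' deposited table. Gucy1a1 had 32 members as the nearest gene, 16 of them called between 10.999 and 72.9 kb from its start, with log2 fold changes from -5.74 to -1.91 in the authors' deposited table. Beside the 8 called members of Npy1r, which all lay 43.2 to 51.3 kb from its start, the 4 uncalled ones lay closer. Over all 3119 nearest genes, 270 had a called member, 67 with a higher and 207 with a lower one, and 4 of these genes (Osr1 and Ryr2 among them) had both. Of the 266 with calls in 1 direction, 97 also had a listed feature over the gene body and 26 a called one, which went in the members' direction for 22 genes and in the opposite direction for 4 (Zfpm2, Gnai2, Ptn and Slc16a12). Zfpm2 is the overexpressed gene itself, so its case does not compare intervals with an unaltered gene.

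**Figure D4:**
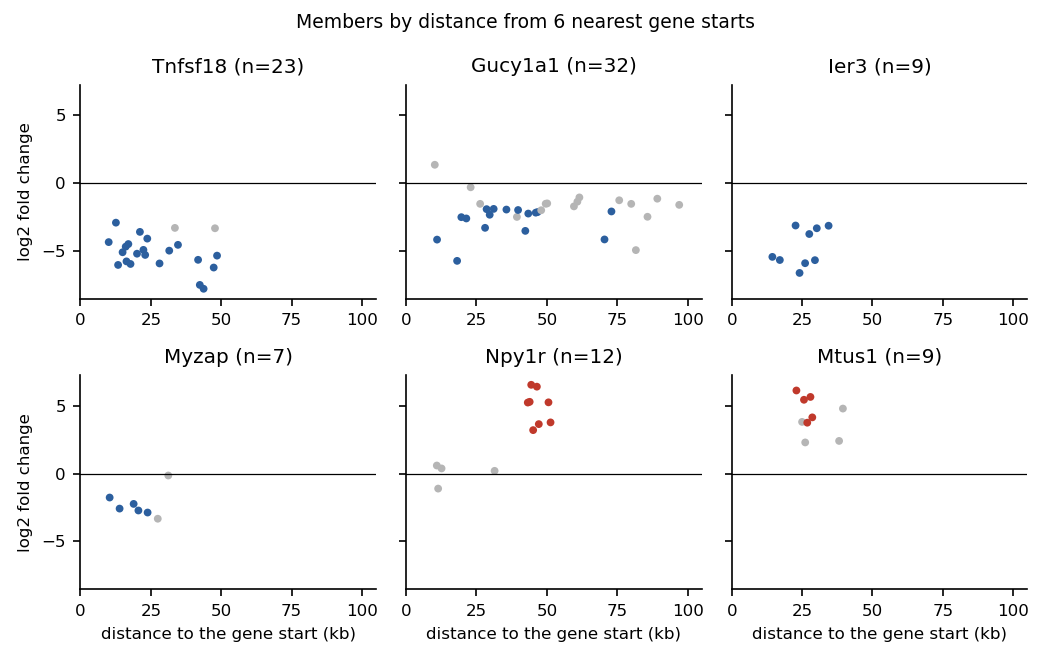
Log2 fold change of FOG2_OE over WT from the authors' deposited table (vertical axis) against distance to the start of the nearest gene in kb (horizontal axis) for the members nearest to Tnfsf18, Gucy1a1, Ier3, Myzap, Npy1r and Mtus1. Blue points were called lower, red points higher and grey points neither. All 9 members near Ier3 were called lower, and near Npy1r the 8 called points sit together apart from 4 grey ones.

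The members were also described by the function of the nearest gene, with lists chosen with earlier results known, so that a list's count is no independent evidence. The counts below stand beside 4.65% lower and 1.16% higher among all features. Near genes of G protein signalling, the list with the most members, 24 of 95 were lower (25.3%) and 8 higher (8.42%), and the authors' deposited table gives them a median log2 fold change of -0.31, against -0.21 for all features. The 8 higher ones were those beyond Npy1r, and 20 of the 24 lower ones were nearest to Rgs13 (12), Rgs2 (6) and Rgs1 (2). The others were 2 near Adra1b, 1 near Gnai2 and 1 near Pde3a, so that 7 of the 14 genes with members account for the calls. MSTRG.4446 beyond Rgs13 stood at 0.366 CPM in FOG2_OE and 5.202 CPM in WT.

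Near ion channels of the action potential, 7 of 41 members were lower (17.1%) and none higher: 5 near Kcna4, 1 near Kcnh2 and 1 near Kcnj12, an inward rectifier channel. Near pacemaker and conduction genes, 3 of 15 were higher, all at Hcn4. Near genes of calcium release and reuptake, 3 of 23 were lower (13.0%) and 1 higher (4.35%). Upstream of Atp2a2, MSTRG.66594 stood at 4.54 and 11.1 CPM and MSTRG.66593 at 1.11 and 4.03 CPM. Upstream of Ryr2, the calcium release channel, MSTRG.21903 was lower (0.177 and 0.635 CPM) and MSTRG.21911 higher (0.0887 and 0.00431 CPM, the latter 1 fitted count over the group).

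Of 84 members near cardiac transcription factors, 9 were lower (10.7%) and 1 higher (1.19%). Upstream of Zfpm2, 6 of 11 were lower, of which MSTRG.29818 (1.75 and 6.27 CPM) and MSTRG.29822 (0.426 and 1.84 CPM) are examples, listed on the strand opposite to Zfpm2. Near Osr1, a factor of atrial septation, 2 were lower and 1 higher of 40, and near Gata6 1 was lower (MSTRG.39407, 0.630 and 1.95 CPM). Near genes of energy metabolism, 3 of 11 were lower (27.3%), all upstream of Vldlr, and 2 higher (18.2%), both past Pdk4. Near atrial muscle genes 1 of 26 was lower (3.85%), MSTRG.27803 past Clu, the gene of clusterin (0.0876 and 0.483 CPM), while before adjustment 6 higher and 2 lower ones had p under 0.05, and the list's median log2 fold change by the authors' deposited table was 0.48. Near genes named for atrial fibrillation loci, 3 of 49 were higher (6.12%, Hcn4) and 1 lower (2.04%, Kcnh2). Near stress genes 1 of 40 was lower (2.50%) and near matrix genes 1 of 47 (2.13%), the same member, MSTRG.7288, 99.964 kb upstream of Ccn2, the gene of connective tissue growth factor (0.0885 and 0.322 CPM). None of the 16 members near sarcomere genes and none of the 14 near growth factor and guidance genes was called, and their median log2 fold changes by the authors' deposited table were -0.28 and -0.79. At an unadjusted p under 0.05 in the authors' likelihood ratio test, 2 and 3 of them were lower and 0 higher. Of all 34518 features, 1561 were higher and 4319 lower at that level. Shares of calls by list rest on a few places, since several calls come from 1 gene, and lists were not tested against other members.

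**Figure D5:**
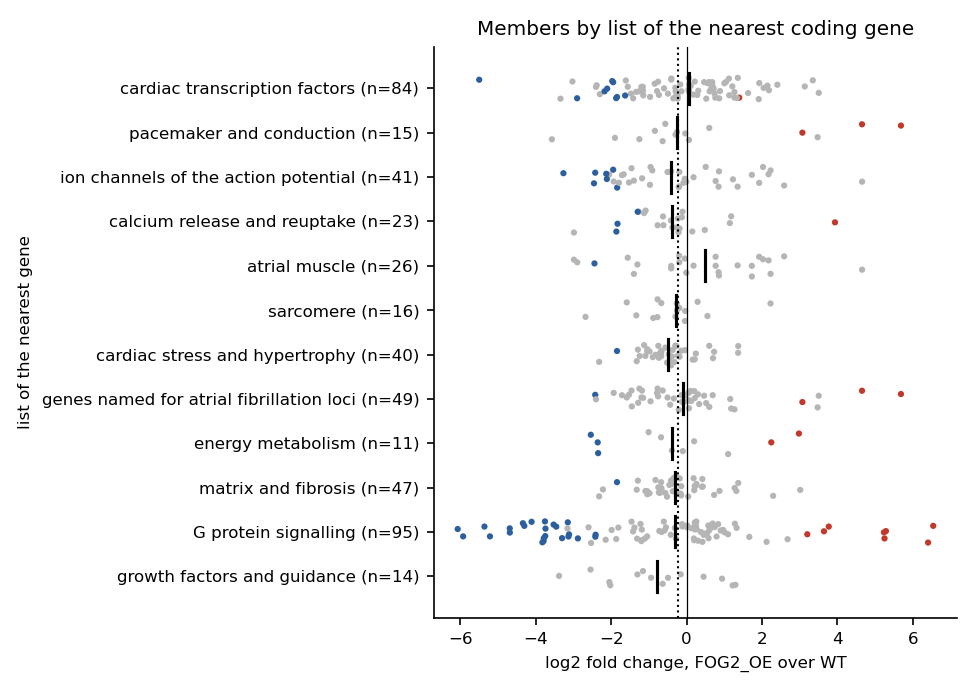
Log2 fold change of FOG2_OE over WT from the authors' deposited table (horizontal axis), 1 point per member, for members whose nearest coding gene is in 1 of 12 lists (vertical axis, with the number of members). Blue points were called lower, red points higher and grey points neither, black bars are list medians and the dotted line is the median of all features, -0.21. G protein signalling, the list with the most members, had 32 called of 95, and energy metabolism 5 of 11.

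Of the 83 members near marker genes of the cell types of the atrium, 4 (4.82%) were called, beside 5.81% of all features. Near markers of fibroblasts 0 of 9 members were called, endothelium 0 of 4, smooth muscle and pericytes 0 of 1, macrophages 0 of 1, lymphocytes 0 of 2, epicardium 0 of 3 and adipocytes 0 of 9. At an unadjusted p under 0.05 in the same test, 2 near fibroblast markers were higher, 1 each near endothelial and adipocyte markers were lower, and none near the other 4 lists. Of all 34518 features, 1561 were higher and 4319 lower at that level. Near endocardial markers 1 of 6 was lower (MSTRG.29174 near Npr3, 0.0126 and 0.110 CPM), and with the median ratio set to 1 its adjusted p was 0.0711 by the recomputed likelihood ratio. Near neural and Schwann cell markers 1 of 38 was higher (MSTRG.72234 near Kcna1, a potassium channel, 0.544 and 0.142 CPM). The members of that list had a median log2 fold change of 0.89 by the authors' deposited table, with 8 of 38 under 0. Before adjustment, 6 higher members and 1 lower member had p under 0.05. They summed to 7.10 CPM under FOG2_OE and 4.43 CPM in WT. Near cardiomyocyte markers 1 of 10 was higher and 1 lower, both at Ryr2. Summed levels near fibroblast markers were 10.2 CPM in FOG2_OE and 11.2 CPM in WT, near endothelial markers 2.20 and 1.84 CPM, and near cardiomyocyte markers 8.31 and 14.8 CPM. An interval near a marker gene is not its mRNA, and the part of cell numbers in the calls was not tested.

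The 6 most abundant members, ranked by CPM and not per length, were not called. MSTRG.44992 and MSTRG.45014, intervals of 162 and 184 bases on chromosome 2 upstream of Apbb1ip, held 49.8% of the members' summed level in FOG2_OE and 41.1% in WT. The first stood at 3638 CPM in FOG2_OE and 2296 CPM in WT, a log2 fold change of 0.66 (SE 0.58, adjusted p = 0.61) by the authors' deposited table. The second stood at 593 and 1113 CPM, so that the neighbours differed in sign without either passing the test. All members summed to 8489 CPM under FOG2_OE and 8296 CPM in WT, and without these 2 members it was 4258 and 4886 CPM. MSTRG.69447 upstream of Igf2bp3 (242 and 163 CPM), MSTRG.46749 near Gm11084 (205 and 139 CPM) and MSTRG.37486 beyond Rpp21 (120 and 68.2 CPM) were short too. MSTRG.73293 upstream of Tmtc1, with 67302 bases the widest member, stood at 50.1 and 75.3 CPM, a log2 fold change of -0.59 (SE 0.21, adjusted p = 0.078) by the authors' deposited table.

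The 2 features nearest to each limit on either side were not called. Called members lay close to the limits too, such as MSTRG.58761 at 10.010 kb from Gm11213, MSTRG.4990 at 10.020 kb from Tnfsf18 and MSTRG.7288 at 99.964 kb from Ccn2. The 3 features within 10 kb of Tnfsf18 were also called lower. The closest members were MSTRG.51128 at 10.002 kb from Gm14444 (0.0541 CPM in FOG2_OE and 0.0501 CPM in WT) and MSTRG.33260 at 10.003 kb from Yeats2 (0.550 and 0.740 CPM). Just outside lay MSTRG.49632 at 9.998 kb from Cst9 (0.0586 and 0.0736 CPM) and MSTRG.87745 at 9.995 kb from Fbxw15. At the far limit, MSTRG.41617 at 99.99 kb from Zfp236 and MSTRG.39711 at 99.97 kb from Galnt1 were inside. MSTRG.56892 at 100.021 kb from Car8 and MSTRG.44264 at 100.024 kb from Rab11fip2 were outside.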

How the data were processed

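Ribosomal and polyadenylated RNA were depleted before library preparation, per the labels' protocols. The submitters' processing notes name STAR, HTSeq 0.6.0, edgeR, deepTools and mm10, with no roles. How features were assembled is not given in the sources used here. The deposited table held, per the file headers, the authors' values per feature: log2 fold change, log2 CPM, the score of a likelihood ratio test, and p-values before and after Benjamini-Hochberg adjustment. The authors' 6 deposited sample columns were multiples of each other within a group (largest relative spread 1.8e-14), so they were read as fitted counts. An edgeR quasi-likelihood fit was planned for the case of counts per replicate and was not run.

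Effective library sizes came from 718 features of over 300 fitted counts. A dispersion per feature was solved from the deposited likelihood ratio, and gave the SE and the calls after rescaling. The steps were tested on simulated data. Floors of 3 counts and intervals cover counting error only. Starts in the table count from 0 and are printed from 1. The tools were pandas 2.3.3, scipy 1.17.1 and numpy 2.4.6 under Python 3.11.15.

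Members and lists were chosen with earlier results of these data known. Named members were the 12 higher and 12 lower calls with the smallest adjusted p (at most 2 per gene and direction), the 6 most abundant, up to 4 calls per gene list, the 5 groups with the most calls and the 2 features on each side of each limit. Of these, 1 lower member is not reported here. No genome sequence was used, so motifs were counted in RefSeq start windows of 300 bases in place of the members' own starts. Alternatives changed the scale, the reference distribution, a filter on fitted counts, the threshold, the gene starts and the members kept.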

Additional observations from a re-analysis of the deposited data

How the results depend on the processing

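No paired analysis was possible because the deposited sample columns are fitted values with no count per replicate. For the same reason neither the replicate block nor leaving out a replicate was run, and the motif window centred on a member was not run for want of a genome sequence. Against 103 higher and 452 lower members as reported, the F distribution gave 15 and 93 with 10 residual degrees of freedom and 0 and 0 with 4. An adjusted p under 0.01 gave 52 and 253, and features of at least 20 fitted counts gave 37 and 174. These smaller counts follow from a stricter reading or from fewer features tested. The remaining settings stayed within 1.5 times of the reported counts: 143 and 327 with the median ratio centred, 104 and 468 with transcript starts, 106 and 616 with starts of any gene type, and 99 and 448 with 1 member per overlapping group. Of the settings added after seeing the data, leaving out the 5 largest groups gave 103 and 356, leaving out members over RefSeq records 76 and 352, and leaving out members within 10 kb past a gene end 82 and 351. Past gene ends, the 101 lower members became 17 with the F distribution (10 residual degrees of freedom), 66 when centred, 71 within 5 kb and 29 within 1 kb. The median log2 fold change of members, -0.25, was -0.04 when centred and -0.23 for members of at least 20 fitted counts. The 50 named members include the 6 most abundant, which were not called. Of the called ones, 1 lost its call when centred and 15 with the F distribution at 10 residual degrees of freedom. All lost it at 4, where no member was called. None changed direction when centred. With 77.4% of members under 20 fitted counts, changes of scarce members are imprecise.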
